A study of Mus musculus with 9 samples.

Results

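Interferon-stimulated genes were read across 2 sorted brain cell populations and spleen monocytes of the mouse. The set is a fixed list of 40 gene symbols. Of these, 37 had a probe set annotated to that gene alone, among 19937 genes measured on the arrays. A gene with several such probe sets was represented by the brightest one. Isg15 and Gbp2 are covered here only by probe sets shared with another gene, and Ifi44 was not analysed here. RNA came from wild type C57BL/6 mice, with 3 arrays each of Ly6C-high microglia, Ly6C-low microglia and spleen monocytes. Brains were perfused, digested and enriched on Percoll, and the sort used Ly6C together with CD11b, CD45, MHC class II and F4/80 antibodies. The labels name the Ly6C-high cells MgSCs and the Ly6C-low cells bulk microglia, and give no age and no statement on whether replicates came from separate animals. A p-value here therefore reflects the spread of these samples alone, and that spread may be technical. No group was treated with interferon or infected, per the labels.

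Interferons are secreted proteins that warn cells of infection. Type I interferon binds a receptor whose kinases phosphorylate STAT2, which with IRF9 binds the interferon-stimulated response element (ISRE) in promoters, while interferon gamma is known to act at gamma-activated sites (GAS). The genes switched on encode sensors of viral RNA, enzymes that block viral growth and feedback regulators. In the brain, microglia are known both to make type I interferon and to respond to it, and many of these genes have a low constant level without infection.

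The groups differed in much besides these genes. Of 13 measured brain endothelium markers, 13 were called higher in the Ly6C-high group than in the Ly6C-low group, with list means of 10.58 to 11.04 on the log2 scale in the Ly6C-high arrays, 6.41 to 7.78 in the Ly6C-low arrays and 6.37 to 6.47 in monocytes. Of 13 measured homeostatic microglia markers, 13 were lower, with list means of 8.30 to 8.97 against 10.86 to 11.30. The part of these cells in each difference below was not tested. Classical monocyte markers had a list mean of 9.61 in Ly6C-high replicate 2, against 7.62 and 6.31 in replicates 1 and 3 and 10.16 to 10.40 in monocytes, and cell division genes stood at 8.06 there against 6.46 and 6.12. Neutrophil markers were at 9.51 in Ly6C-low replicate 3 and at 6.83 and 7.09 in the other Ly6C-low arrays. The spleen arrays also carried B cell markers at 8.41 to 9.01, against 5.53 to 6.21 in brain, and neutrophil markers at 9.97 to 10.58. In such bulk RNA, fewer cells of a type and less RNA per cell cannot be told apart.

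The promoters of the listed genes were searched for the 2 elements, since these letters define how the genes are known to be switched on. RefSeq promoter windows of build GRCm38.p6, from 250 bases before to 50 after the start, were matched for 31 of the 40 genes. The ISRE core, which is GAAANNGAA followed by A, on either strand, was present in 13 of the 31 (41.9%), against 3.32% of 15613 promoters of genes on the array. The shorter GAAANNGAA, which every ISRE core contains, was in 51.6% against 7.94%, and a longer core with ACT in place of the final A, which contains both, in 19.4% against 0.307%. The GAS core TTCNNNGAA was in 16.1% against 7.83%, and 2 listed promoters held both an ISRE and a GAS core. A match is a description of letters and not a bound site. The matches upstream of the start follow for members whose values are described, with the ISRE core in capitals and 8 bases on each side.
Ifit3, chr19:34583365-34583390, plus strand: gtggtaagTTTCACTTTCctcttctg
Ifit3, chr19:34583399-34583424, plus strand: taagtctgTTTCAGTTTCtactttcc
Ifit1, chr19:34640777-34640802, plus strand: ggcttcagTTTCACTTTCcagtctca
Ifit1, chr19:34640796-34640821, plus strand: agtctcagTTTCAGTTTCtcactgct
Oas1a, chr5:120907522-120907553, minus strand: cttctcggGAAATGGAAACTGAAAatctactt
Oas3, chr5:120777717-120777742, minus strand: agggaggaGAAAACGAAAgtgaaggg
Rsad2, chr12:26456555-26456580, minus strand: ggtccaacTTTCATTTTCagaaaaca
Gbp3, chr3:142559991-142560022, plus strand: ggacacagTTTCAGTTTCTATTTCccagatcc
Trim30a, chr7:104465212-104465237, minus strand: ttctttagTTTCTTTTTCtcagttcc
Stat2, chr10:128270268-128270293, plus strand: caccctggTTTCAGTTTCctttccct

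Ifit1 and Ifit3 each hold 2 matches, all on the reverse strand. Ifit2, their neighbour, held no ISRE core and 1 GAS core. Longer stretches, the 250 bases before the start, are given for 5 members. Sp100 and Irf7 are those with a promoter in the table that passed in all 3 comparisons, and Samd9l, Xaf1 and Ifit3 had the largest differences between the microglia groups among the members that passed in 2. Capitals mark matches to either the shorter core or the ISRE core.
Sp100, chr1:85649738-85649987, plus strand: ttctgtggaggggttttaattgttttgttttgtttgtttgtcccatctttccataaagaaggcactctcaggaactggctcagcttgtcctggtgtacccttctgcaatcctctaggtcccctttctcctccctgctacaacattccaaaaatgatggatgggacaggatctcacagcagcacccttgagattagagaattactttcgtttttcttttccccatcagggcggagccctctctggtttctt
Irf7, chr7:141266425-141266674, minus strand: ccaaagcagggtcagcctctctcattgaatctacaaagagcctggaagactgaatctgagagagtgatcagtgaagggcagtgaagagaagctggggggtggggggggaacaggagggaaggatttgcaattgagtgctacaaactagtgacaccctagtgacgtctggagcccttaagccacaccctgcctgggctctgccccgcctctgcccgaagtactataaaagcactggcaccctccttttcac
Samd9l, chr6:3399572-3399821, minus strand: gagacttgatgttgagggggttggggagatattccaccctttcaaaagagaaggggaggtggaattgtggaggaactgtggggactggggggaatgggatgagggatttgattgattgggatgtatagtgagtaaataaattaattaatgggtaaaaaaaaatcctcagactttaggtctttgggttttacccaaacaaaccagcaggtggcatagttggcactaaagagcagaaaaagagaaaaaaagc
Xaf1, chr11:72301379-72301628, plus strand: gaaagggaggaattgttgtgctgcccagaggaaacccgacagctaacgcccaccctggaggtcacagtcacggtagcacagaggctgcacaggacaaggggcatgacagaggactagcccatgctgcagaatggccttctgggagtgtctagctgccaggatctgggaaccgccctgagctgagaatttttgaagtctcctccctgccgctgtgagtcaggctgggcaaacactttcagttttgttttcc
Ifit3, chr19:34583279-34583528, plus strand: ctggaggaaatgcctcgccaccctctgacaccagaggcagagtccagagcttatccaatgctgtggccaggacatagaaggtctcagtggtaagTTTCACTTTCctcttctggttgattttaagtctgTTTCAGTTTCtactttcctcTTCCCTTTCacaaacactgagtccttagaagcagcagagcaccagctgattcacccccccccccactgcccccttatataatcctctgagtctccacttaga

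The windows of Sp100, Irf7, Xaf1 and Samd9l hold no ISRE core and no GAS core, which says only that these letters are not in these windows. That of Samd9l holds 1 shorter core, outside the stretch printed above. The share of ISRE cores among these 5 depends on the choice, since Oas1a, Oas3, Rsad2 and Trim30a also passed in 2 comparisons and hold a core before the start.

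**Figure D1:**
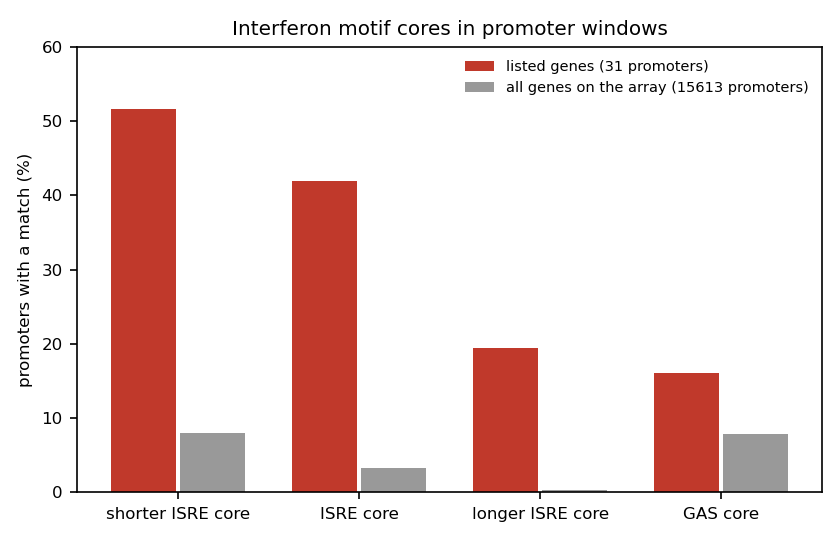
Share of promoter windows (%) that hold each motif core, for 31 listed genes (red) and 15613 genes on the array (grey), 1 promoter per gene. The ISRE core is in 41.9% of the listed promoters and 3.32% of all, and the GAS core in 16.1% and 7.83%.

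Between the microglia groups, 11 of the 37 measured genes were higher in Ly6C-high than in Ly6C-low microglia and 0 were lower at an adjusted p under 0.05 (limma, Benjamini-Hochberg over all 19937 genes). That is 29.7% of the members, against 15.4% of all genes called in that comparison, 4.49% higher and 11% lower. The median log2 difference was 0.23 for the members and 0.05 for all genes. Against spleen monocytes the members lay the other way. Of the 37 genes 20 were lower and 0 higher in Ly6C-high microglia (54.1%, with 21.5% of all genes called, 6.88% higher and 14.6% lower), with a median of -0.77 against 0.09. In Ly6C-low microglia 24 were lower and 0 higher (64.9%, with 14.5% of all genes called, 6.8% higher and 7.71% lower), with a median of -1.20 against 0.05. Under cyclic loess normalization 1 gene, Nmi, was called higher in Ly6C-high microglia than in monocytes. The comparisons share arrays, so their counts are not independent of each other.

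**Figure D2:**
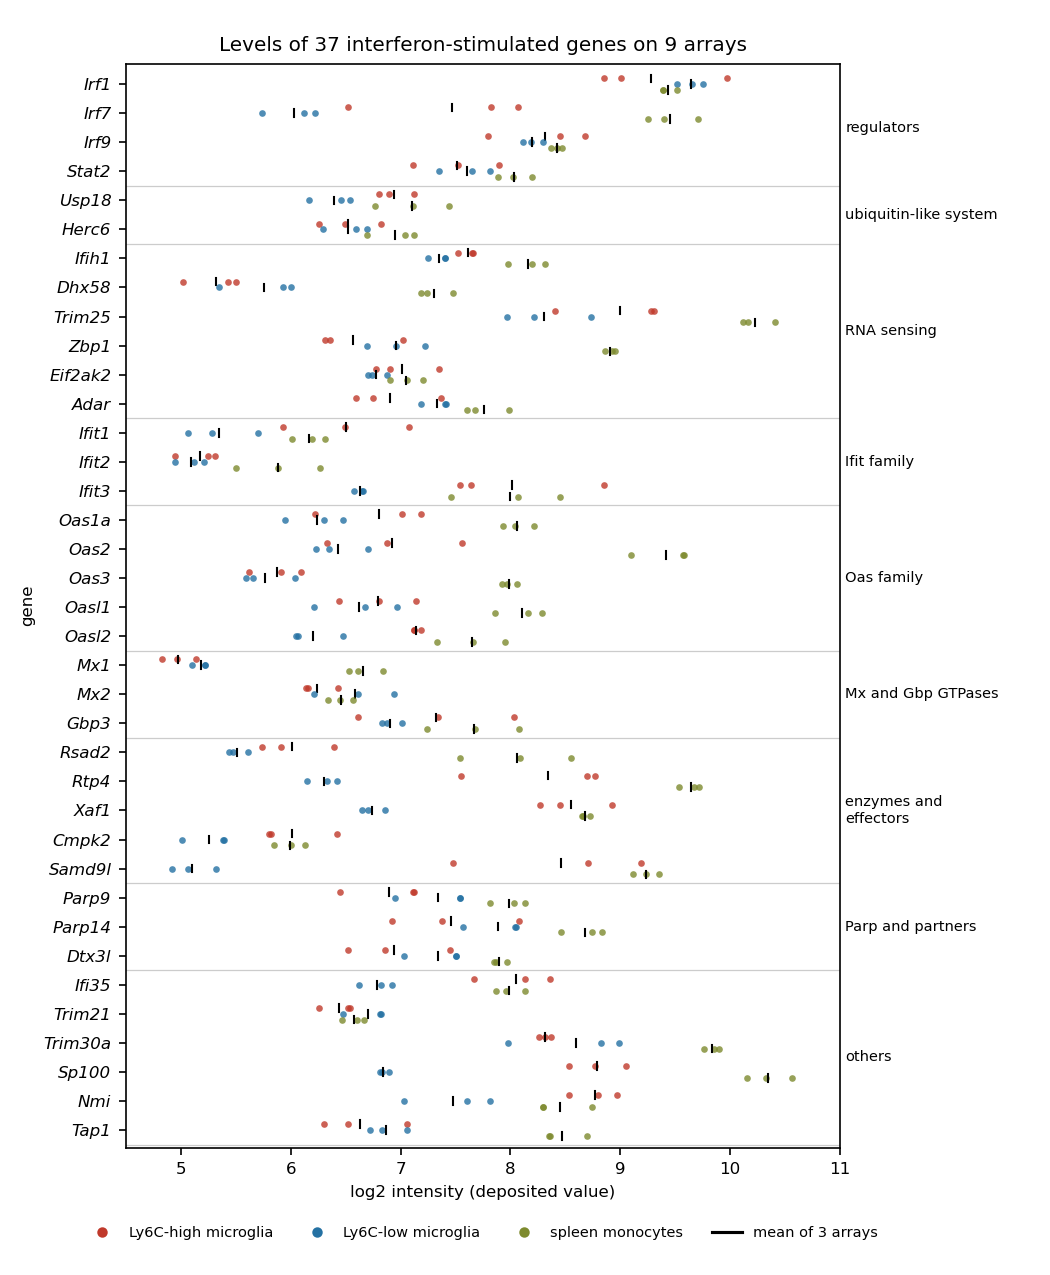
Deposited log2 intensity (x axis) of the 37 measured genes (y axis, grouped by role) on each of 9 arrays: red Ly6C-high microglia, blue Ly6C-low microglia, green spleen monocytes, with a bar at the mean of 3 arrays. The red points of Samd9l, Sp100, Rtp4 and Xaf1 lie to the right of all blue points, and the green points lie to the right of both other groups in all 5 genes of the Oas family.

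Over the 37 genes, the order of the 3 group means was monocytes above Ly6C-high above Ly6C-low microglia in 18 and monocytes above Ly6C-low above Ly6C-high in 11. Ly6C-high microglia had the highest mean in 5 genes, Ifit1, Ifit3, Ifi35, Cmpk2 and Nmi, none of which differed from monocytes beyond the spread (adjusted p = 0.2904 to 0.9785, limma). Ly6C-low microglia had the highest mean in 3, Irf1, Trim21 and Mx2, none of which passed in any comparison. The arrays of the microglia groups did not overlap in 14 of the 37 genes, all 14 higher in Ly6C-high. Of all 19937 genes 30.1% had no overlap there, 2568 higher and 3428 lower in Ly6C-high. Ly6C-low microglia and monocytes did not overlap in 33 of the 37, all lower in microglia. Over all genes it was 42.3%, with 4624 higher and 3801 lower in microglia. Ly6C-high microglia and monocytes did not overlap in 21, all lower in microglia. Over all genes it was 45.9%, with 4796 higher and 4357 lower.

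The regulators of the pathway did not move as a block. Irf7, the factor that amplifies type I interferon production, stood at 6.52, 7.82 and 8.07 in the Ly6C-high group, at 5.74, 6.12 and 6.22 in the Ly6C-low group and at 9.71, 9.40 and 9.25 in monocytes. The 3 groups did not overlap, with Ly6C-high replicate 1 close to the Ly6C-low arrays. Irf7 was higher in Ly6C-high than in Ly6C-low microglia by 1.44 ± 0.37 (SE, log2, 2.72-fold, adjusted p = 0.0303) and lower than in monocytes by 3.96-fold (-1.98 ± 0.37, adjusted p = 0.0065). In Ly6C-low microglia it was lower than in monocytes by 10.8-fold (-3.43 ± 0.37, adjusted p = 4.09e-04). The call between the microglia groups ended without Ly6C-high replicate 2 or 3, without any 1 of the 3 Ly6C-low arrays or without monocyte replicate 2 (log2 difference 1.14 to 1.54, adjusted p = 0.0530 to 0.0926).

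Irf9, a DNA-binding partner of STAT2, was at 8.68, 8.45 and 7.80 in the Ly6C-high group, 8.30, 8.11 and 8.19 in the Ly6C-low group and 8.37, 8.42 and 8.47 in monocytes. Its Ly6C-high arrays spanned both other groups. Its partner Stat2 read 7.11, 7.90 and 7.52, then 7.35, 7.81 and 7.65, then 7.89, 8.20 and 8.02 in the same order of groups. Irf1, a factor known from the response to interferon gamma, read 9.97, 8.85 and 9.01, then 9.52, 9.75 and 9.65, then 9.39, 9.39 and 9.52. None of these 3 genes passed in any comparison (adjusted p = 0.1046 to 0.7914). Irf1 was called lower in Ly6C-high microglia without replicate 1, by -0.71 against Ly6C-low microglia (adjusted p = 0.0042) and by -0.50 against monocytes (adjusted p = 0.0165). Without Ly6C-high replicate 2, Stat2 was called lower than in monocytes (-0.72, adjusted p = 0.0252).

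The largest difference between the microglia groups was in Samd9l, which encodes an inhibitor of viral protein synthesis. It stood at 7.48, 9.19 and 8.71 in Ly6C-high microglia and at 5.32, 5.06 and 4.92 in Ly6C-low microglia, with 9.35, 9.23 and 9.12 in monocytes. Every Ly6C-high array was over 2 units above every Ly6C-low array, and replicate 2 reached the monocyte range. The difference was 3.36 ± 0.37 (10.3-fold, adjusted p = 5.53e-04). Ly6C-low microglia were below monocytes by 17.6-fold (-4.13 ± 0.37, adjusted p = 1.65e-04). Ly6C-high microglia did not differ from monocytes beyond the spread (-0.77 ± 0.37, adjusted p = 0.1611), except without Ly6C-high replicate 2, where they were lower (-1.14, adjusted p = 0.0343).

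Sp100, a component of nuclear bodies that restrict viral DNA, had large differences beside a small spread. Its arrays read 8.53, 9.05 and 8.77 in the Ly6C-high group, 6.83, 6.81 and 6.89 in the Ly6C-low group and 10.15, 10.56 and 10.33 in monocytes. The groups were fully apart. Ly6C-high exceeded Ly6C-low microglia by 1.93 ± 0.16 (3.82-fold, adjusted p = 1.20e-04) and lay below monocytes by 2.96-fold (-1.57 ± 0.16, adjusted p = 2.76e-04), and Ly6C-low microglia lay below monocytes by 11.3-fold (-3.50 ± 0.16, adjusted p = 5.01e-06). Rtp4, a chaperone of membrane receptors that is strongly induced by interferon, had the same order. It read 7.55, 8.70 and 8.77 in the Ly6C-high group, 6.33, 6.42 and 6.15 in the Ly6C-low group and 9.53, 9.67 and 9.72 in monocytes. It was higher by 2.04 ± 0.29 between the microglia groups (4.11-fold, adjusted p = 0.0020), and below monocytes by -1.30 ± 0.29 in the Ly6C-high group (adjusted p = 0.0157) and by -3.34 ± 0.29 in the Ly6C-low group (10.1-fold, adjusted p = 1.45e-04). The Rtp4 call of Ly6C-high microglia against monocytes ended without monocyte replicate 2 or 3 (-1.28 to -1.26, adjusted p = 0.0525 to 0.0547).

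Xaf1, which encodes an antagonist of the apoptosis inhibitor XIAP, was at 8.45, 8.92 and 8.27 in the Ly6C-high group, 6.65, 6.70 and 6.86 in the Ly6C-low group and 8.72, 8.66 and 8.65 in monocytes. The Ly6C-high arrays lay on both sides of the monocyte arrays and above all Ly6C-low arrays. The difference between microglia groups was 1.81 ± 0.16 (3.51-fold, adjusted p = 2.04e-04), that from monocytes -0.13 ± 0.16 (adjusted p = 0.5319). Ifi35 and Nmi encode partner proteins that bind each other. Ifi35 read 7.67, 8.36 and 8.13 in Ly6C-high microglia against 6.62, 6.92 and 6.82 in Ly6C-low microglia (1.26 ± 0.18, adjusted p = 0.0020). Nmi read 8.80, 8.97 and 8.53 against 7.03, 7.60 and 7.81 (1.29 ± 0.22, adjusted p = 0.0051). The monocyte levels were 7.98 ± 0.13 for Ifi35 and 8.45 ± 0.25 for Nmi (SD, n = 3), beside Ly6C-high levels of 8.05 ± 0.35 and 8.77 ± 0.22. Both genes were lower in Ly6C-low microglia than in monocytes (adjusted p = 0.0028 and 0.0209), and the Nmi call ended without Ly6C-low replicate 1 or 2 or monocyte replicate 1 (-1.03 to -0.75, adjusted p = 0.0503 to 0.0845). Samd9l, Sp100, Rtp4, Xaf1, Ifi35 and Nmi are the 6 of the 11 genes whose call between microglia groups held in each of the alternatives run.

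**Figure D3:**
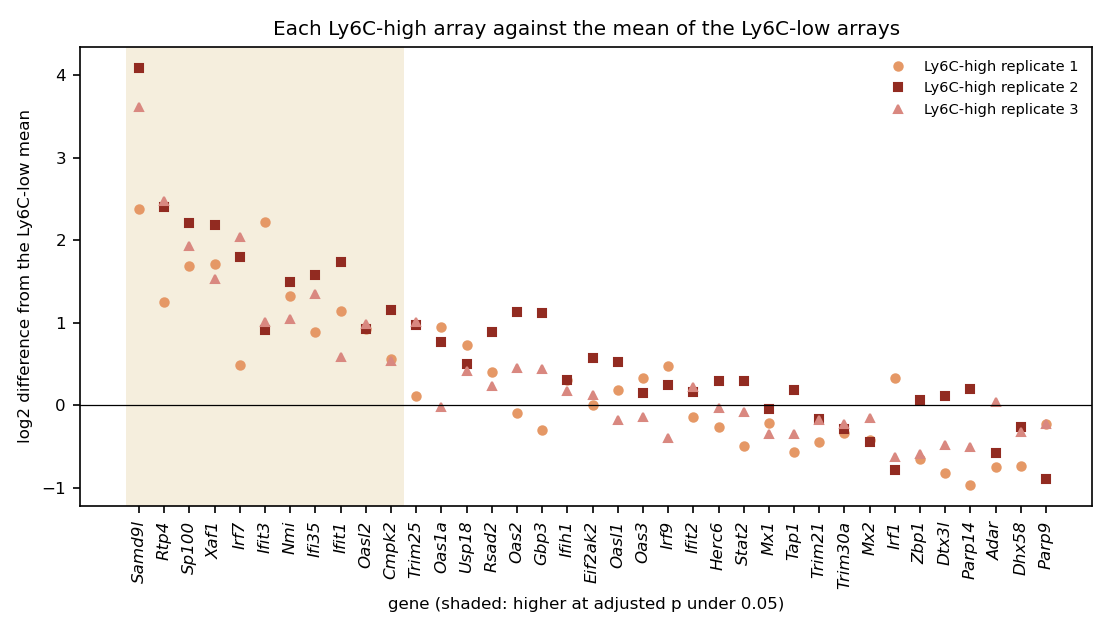
Log2 difference of each Ly6C-high array from the mean of the 3 Ly6C-low arrays (y axis) for the 37 genes (x axis, ordered by the mean difference); shaded genes were called higher. All 3 arrays lie above 0 in each of the 11 shaded genes, and replicate 2 (squares) is the highest array in 21 of the 37 genes.

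The Ly6C-high arrays differed among themselves in these genes. The median difference of the 37 genes from the Ly6C-low mean was 0.18 in replicate 1, 0.50 in replicate 2 and 0.12 in replicate 3, and 21, 29 and 20 of them lay above that mean. Over all genes the medians were 0.10, -0.02 and -0.02, so part of the value in replicate 1 is common to all genes. Replicate 2, the array with the highest classical monocyte and cell division markers, held the top value of the group in 21 of the 37 genes, compared with 27.6% of all genes. Without it, 10 of the members were called higher (all 10 among the 11) and 3 lower. The 3 were Zbp1 at -0.62 (adjusted p = 0.0296), Parp14 at -0.74 (adjusted p = 0.0481) and Dtx3l at -0.65 (adjusted p = 0.0417). The members' median fell to 0.07. In the main fit 4.49% of all genes were called higher and 11% lower. Those shares are not given here for the fit without replicate 2, so its counts are not set against all genes. In Ly6C-low microglia replicate 2 held the top value in 20 of 37 and in monocytes replicate 1 in 14. The median SD over the 37 genes was 0.35 in the Ly6C-high group, 0.21 in the Ly6C-low group and 0.16 in monocytes, against 0.27, 0.14 and 0.11 over all genes, and the SD was above 1 for 0 of the 37 in every group.

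The Ifit family encodes proteins that bind foreign RNA and block its translation. Ifit3 stood at 8.85, 7.54 and 7.64 in the Ly6C-high group, 6.58, 6.66 and 6.65 in the Ly6C-low group and 8.07, 7.46 and 8.45 in monocytes. The Ly6C-low arrays were low and tight, and the other groups overlapped. Ifit3 was higher in Ly6C-high than in Ly6C-low microglia (1.38 ± 0.36, 2.60-fold, adjusted p = 0.0336) and lower in Ly6C-low microglia than in monocytes (-1.37 ± 0.36, adjusted p = 0.0366). Ifit1 read 6.49, 7.08 and 5.93 in the Ly6C-high group, 5.28, 5.70 and 5.06 in the Ly6C-low group and 6.19, 6.31 and 6.01 in monocytes. It was higher in Ly6C-high than in Ly6C-low microglia (1.15 ± 0.28, 2.22-fold, adjusted p = 0.0254). Ifit2 had no such difference (0.08 ± 0.20, adjusted p = 0.8072). Its means were 5.17 ± 0.19 and 5.09 ± 0.13 in the microglia groups and 5.88 ± 0.39 in monocytes (SD, n = 3), lower in both microglia groups (adjusted p = 0.0354 and 0.0296).

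These Ifit calls rested on few arrays. The Ifit3 call between microglia groups ended without any 1 of the Ly6C-low arrays or without monocyte replicate 1 (1.36 to 1.40, adjusted p = 0.0584 to 0.0980), and its call against monocytes without any 1 of the Ly6C-low arrays or without monocyte replicate 1 or 3 (-1.38 to -1.14, adjusted p = 0.0958 to 0.1227) or under quantile normalization or cyclic loess (adjusted p = 0.0711 to 0.0968). With a spread per group the Ifit3 call between microglia groups ended too (adjusted p = 0.0994). The Ifit1 call ended without Ly6C-high replicate 1 or Ly6C-low replicate 1 or 3 (1.01 to 1.16, adjusted p = 0.0597 to 0.1011), and Ifit1 was called lower in Ly6C-low microglia than in monocytes without Ly6C-high replicate 2 or 3 (-0.82 in both, adjusted p = 0.0320 to 0.0391). The Ifit2 call of Ly6C-high microglia against monocytes ended without Ly6C-high replicate 1, any 1 of the Ly6C-low arrays or monocyte replicate 1 or 3 (adjusted p = 0.0527 to 0.1050). That of Ly6C-low microglia ended without any 1 of the Ly6C-low arrays or monocyte replicate 1 or 3 (adjusted p = 0.0630 to 0.1042). Ifit2 was dim, with its highest group mean below 6.13, the median of the gene means. A filter on dim genes, tried as an alternative, left it out. Ifit3b, a near copy that may share probes with Ifit3, did not pass in any comparison.

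The Oas family makes or resembles the enzymes that build 2′-5′ oligoadenylate, the activator of RNase L. All 5 genes were lower in Ly6C-low microglia than in monocytes (7.71% of all genes), and 4 were lower in Ly6C-high microglia (14.6% of all genes). Oas2 was at 6.33, 7.56 and 6.88 in the Ly6C-high group, 6.70, 6.23 and 6.35 in the Ly6C-low group and 9.57, 9.58 and 9.10 in monocytes. Both microglia groups were far below every monocyte array and overlapped each other. The differences from monocytes were -2.49 ± 0.30 (5.63-fold, adjusted p = 7.01e-04) and -2.99 ± 0.30 (7.93-fold, adjusted p = 2.67e-04). Oas3 read 6.09, 5.91 and 5.62, then 6.04, 5.59 and 5.66, then 8.06, 7.97 and 7.92, with differences of -2.11 ± 0.16 (adjusted p = 6.88e-05) and -2.22 ± 0.16 (adjusted p = 5.25e-05). Oas1a was lower by -1.25 ± 0.25 and -1.81 ± 0.25 (adjusted p = 0.0095 and 0.0017), the former not under quantile normalization (-0.94, adjusted p = 0.0615). Oasl1 was lower by -1.31 ± 0.24 and -1.48 ± 0.24 (adjusted p = 0.0061 and 0.0038).

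Oasl2 alone of the 5 was called between the microglia groups. Its Ly6C-high arrays were nearly alike at 7.12, 7.12 and 7.19, above 6.07, 6.48 and 6.05 in Ly6C-low microglia and below 7.95, 7.33 and 7.66 in monocytes. It was higher in Ly6C-high than in Ly6C-low microglia (0.95 ± 0.18, 1.93-fold, adjusted p = 0.0076), a call lost when each group was given its own spread (adjusted p = 0.0856) and with both Ly6C-high replicate 2 and Ly6C-low replicate 3 left out (0.89, adjusted p = 0.0587). Against monocytes it did not pass in Ly6C-high microglia (-0.50 ± 0.18, adjusted p = 0.0794), except without monocyte replicate 2 (-0.66, adjusted p = 0.0462). Without Ly6C-high replicate 3, Oas1a was also called higher than in Ly6C-low microglia (0.85, adjusted p = 0.0166). A test of whether Oasl2 differs from its family was not run.

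Rsad2 and Cmpk2 lie next to each other in the genome, with no protein-coding gene between them. Rsad2 encodes viperin, which makes a chain-terminating nucleotide, and Cmpk2 a nucleotide kinase that supplies it. Rsad2 stood at 5.91, 6.39 and 5.74 in the Ly6C-high group, 5.61, 5.47 and 5.44 in the Ly6C-low group and 7.54, 8.55 and 8.09 in monocytes. It was below monocytes by 4.14-fold in Ly6C-high (-2.05 ± 0.26, adjusted p = 9.22e-04) and 5.86-fold in Ly6C-low microglia (-2.55 ± 0.26, adjusted p = 2.85e-04). Cmpk2 read 5.82, 6.42 and 5.80 in the Ly6C-high group, 5.39, 5.01 and 5.38 in the Ly6C-low group and 6.00, 6.13 and 5.85 in monocytes. Here the Ly6C-high and monocyte arrays overlapped (0.02 ± 0.19, adjusted p = 0.9331), and Ly6C-low microglia were lower than both (0.76 ± 0.19, adjusted p = 0.0303, and -0.73 ± 0.19, adjusted p = 0.0360). The Cmpk2 call between microglia groups ended without any 1 of the Ly6C-low arrays or monocyte replicate 1 (0.63 to 0.82, adjusted p = 0.0509 to 0.1155) and under cyclic loess or a spread per group (adjusted p = 0.0616 to 0.0754), and that against monocytes without any 1 of the Ly6C-low or monocyte arrays (adjusted p = 0.0631 to 0.1294). Cmpk2 was also dim, with its highest group mean below 6.13, the median of the gene means, and the filter on dim genes left it out.

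The 6 members that sense or edit foreign RNA and DNA had no call between the microglia groups, where 15.4% of all genes were called. Against monocytes, 5 of the 6 were lower in Ly6C-high microglia, where 14.6% of all genes were, and 4 of the 6 in Ly6C-low microglia, where 7.71% were. Zbp1, a sensor of Z-form nucleic acid that can trigger cell death, was at 6.31, 7.02 and 6.36 in the Ly6C-high group, 6.96, 7.22 and 6.69 in the Ly6C-low group and 8.95, 8.92 and 8.86 in monocytes. Both microglia groups were well below the tight monocyte arrays (5.08-fold, -2.35 ± 0.21, adjusted p = 1.54e-04, and 3.87-fold, -1.95 ± 0.21, adjusted p = 3.95e-04). Dhx58, the RIG-I-like helicase LGP2, read 5.02, 5.50 and 5.43, then 5.35, 5.93 and 6.00, then 7.24, 7.19 and 7.48, which gave -1.99 ± 0.20 (adjusted p = 3.12e-04) and -1.54 ± 0.20 (adjusted p = 0.0013). Without Ly6C-low replicate 1 it was called lower in Ly6C-high than in Ly6C-low microglia (-0.65, adjusted p = 0.0483).

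Trim25, the ubiquitin ligase that activates RIG-I, was lower than in monocytes in both microglia groups (-1.23 ± 0.28, adjusted p = 0.0150, and -1.93 ± 0.28, adjusted p = 0.0020). The former call ended without monocyte replicate 2 (-1.14, adjusted p = 0.0599). Without Ly6C-high replicate 1 Trim25 was called higher in Ly6C-high than in Ly6C-low microglia (0.99, adjusted p = 0.0207), as it was under quantile normalization and cyclic loess. Ifih1, the helicase MDA5, differed by less (-0.55 ± 0.12, adjusted p = 0.0121, and -0.81 ± 0.12, adjusted p = 0.0021), and its former call ended under quantile normalization (-0.18, adjusted p = 0.3942), under cyclic loess (-0.21, adjusted p = 0.3547), with a spread per group (adjusted p = 0.0631) and without monocyte replicate 1 (adjusted p = 0.0508). Under cyclic loess Ifih1 was called higher in Ly6C-high than in Ly6C-low microglia (0.53, adjusted p = 0.0399). Adar, which edits adenosine in double-stranded RNA, was lower in Ly6C-high microglia (-0.85 ± 0.21, adjusted p = 0.0206) and not called in Ly6C-low microglia (-0.42 ± 0.21, adjusted p = 0.2514). The Adar call ended under quantile normalization and cyclic loess (-0.60 in both, adjusted p = 0.0613 to 0.0782), and without Ly6C-high replicate 1 or monocyte replicate 1 or 2 (-0.89 to -0.70, adjusted p = 0.0530 to 0.0806), and without Ly6C-high replicate 3 Adar was called lower than in Ly6C-low microglia (-0.66, adjusted p = 0.0239). Eif2ak2, the kinase PKR, did not pass in any comparison, at 7.01 ± 0.30, 6.77 ± 0.10 and 7.05 ± 0.15 (SD, n = 3).

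Parp9, Dtx3l and Parp14 are consecutive genes whose products act together, Parp9 and Dtx3l as a complex that modifies histones and antiviral proteins. All 3 were lower in Ly6C-high microglia than in monocytes, Parp14 by -1.22 ± 0.28 (adjusted p = 0.0168), Parp9 by -1.09 ± 0.23 (adjusted p = 0.0116) and Dtx3l by -0.95 ± 0.23 (adjusted p = 0.0214). In Ly6C-low microglia the values pointed the same way and did not pass (-0.79, -0.64 and -0.56, adjusted p = 0.1084, 0.1109 and 0.1741), although no Ly6C-low array reached a monocyte array in any of the 3. Their means in Ly6C-high microglia were 7.46 ± 0.58, 6.90 ± 0.38 and 6.94 ± 0.47 for Parp14, Parp9 and Dtx3l, and in Ly6C-low microglia 7.89 ± 0.28, 7.35 ± 0.35 and 7.34 ± 0.27 (SD, n = 3). The Parp9 call ended under quantile normalization (-0.77, adjusted p = 0.0718) and cyclic loess (-0.82, adjusted p = 0.0560), and the Dtx3l call under quantile normalization (-0.72, adjusted p = 0.0560). The Parp14 call ended without monocyte replicate 1 or 2 (adjusted p = 0.0602 to 0.0646) and the Dtx3l call without Ly6C-high replicate 3 or any 1 monocyte array (adjusted p = 0.0530 to 0.0750). In Ly6C-low microglia Parp14 was called lower than in monocytes without Ly6C-high replicate 1 or 2 (adjusted p = 0.0269 to 0.0462) and Parp9 without Ly6C-high replicate 2 (adjusted p = 0.0475). With a spread per group, all 3 were called lower in Ly6C-low microglia than in monocytes (adjusted p = 0.0112 to 0.0230). Parp14 and Dtx3l were also called there when only the 6 arrays compared were fitted (adjusted p = 0.0187 and 0.0379).

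Mx1 encodes a GTPase that traps viral nucleocapsids, and C57BL/6 mice are known to carry a deleted, non-functional allele of it. Its level was 4.98 ± 0.15 in the Ly6C-high group, 5.18 ± 0.07 in the Ly6C-low group and 6.66 ± 0.16 in monocytes (SD, n = 3). Both differences from monocytes passed (-1.68 ± 0.12, adjusted p = 5.80e-05, and -1.48 ± 0.12, adjusted p = 1.16e-04). Mx2, its relative, did not pass in any comparison, at 6.24 ± 0.16, 6.59 ± 0.37 and 6.45 ± 0.11. Gbp3, a guanylate-binding GTPase known from interferon gamma responses, read 6.61, 8.03 and 7.34 in the Ly6C-high group, 6.83, 6.88 and 7.01 in the Ly6C-low group and 7.68, 8.08 and 7.24 in monocytes, and no comparison passed. No Ly6C-low array of Gbp3 reached a monocyte array. It was called lower there with a spread per group (-0.76, adjusted p = 0.0421) and when only the 6 arrays compared were fitted.

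Of the other members, Tap1, the peptide pump of MHC class I loading, was lower than in monocytes in both microglia groups (3.59-fold, -1.84 ± 0.20, adjusted p = 4.87e-04, and 3.03-fold, -1.60 ± 0.20, adjusted p = 0.0011). Trim30a, a regulator of NF-kB signalling, followed (-1.52 ± 0.23, adjusted p = 0.0026, and -1.24 ± 0.23, adjusted p = 0.0081). Without Ly6C-low replicate 1 Trim30a was called lower in Ly6C-high than in Ly6C-low microglia (-0.59, adjusted p = 0.0130). Under cyclic loess its difference between the microglia groups had the opposite sign and was not called. Trim21, a cytosolic antibody receptor, stood at 6.44 ± 0.16, 6.70 ± 0.20 and 6.58 ± 0.10 (SD, n = 3) in the 3 groups and did not pass. Usp18, which removes the ubiquitin-like ISG15 and dampens the receptor, was 6.94 ± 0.16, 6.39 ± 0.19 and 7.11 ± 0.33. It was lower in Ly6C-low microglia than in monocytes (-0.72 ± 0.19, adjusted p = 0.0335), a call that ended without any 1 of the Ly6C-low arrays or monocyte replicate 1 or 2 (adjusted p = 0.0605 to 0.1121). That call also ended under quantile normalization (-0.68, adjusted p = 0.0667). Between the microglia groups Usp18 did not overlap and did not pass (0.55 ± 0.19, adjusted p = 0.0863), but was called higher under quantile normalization, cyclic loess and the description number as a block (0.58 to 0.75, adjusted p = 0.0447 to 0.0471). Herc6, the mouse ligase for ISG15, did not pass (6.52 ± 0.28, 6.52 ± 0.21 and 6.95 ± 0.23), except against monocytes without Ly6C-high replicate 2 (-0.58, adjusted p = 0.0455).

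**Figure D4:**
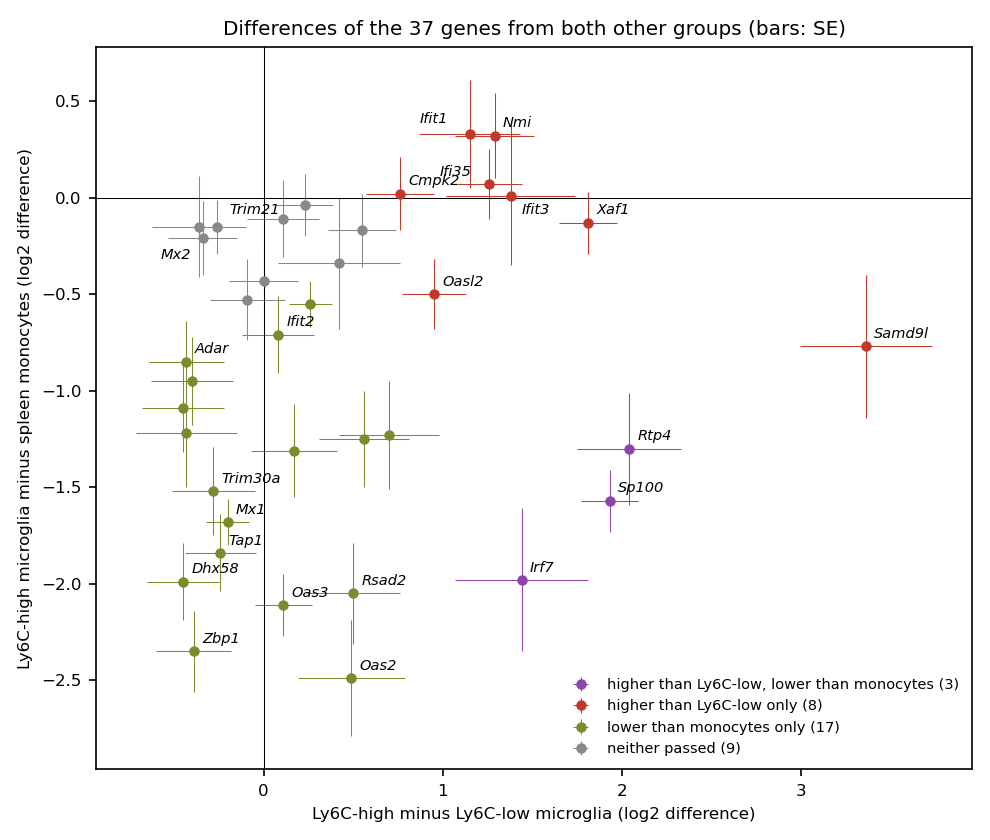
Log2 difference of Ly6C-high from Ly6C-low microglia (x axis) against that from spleen monocytes (y axis) for the 37 genes, with SE bars; colours give which of both differences passed. The 8 red genes lie to the right with no call on the y axis, the 3 purple genes lie between the other groups, and the 17 green genes lie below monocytes without a call on the x axis. Both axes share the Ly6C-high arrays.

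Read over the 3 comparisons in the main fit, the members fell into a few combinations of calls. Some of these combinations change under the alternatives given above. Irf7, Rtp4 and Sp100 passed in all 3 and stood between the other groups. For 7 genes (Ifit3, Oasl2, Xaf1, Ifi35, Cmpk2, Samd9l and Nmi) Ly6C-low microglia were lower than both other groups, which did not differ beyond the spread, and Ifit1 was called only between the microglia groups. In 13 genes (Ifit2, Oas1a, Oas2, Oas3, Oasl1, Rsad2, Ifih1, Dhx58, Trim25, Trim30a, Zbp1, Mx1 and Tap1) both microglia groups were below monocytes with no call between them. Parp9, Parp14, Dtx3l and Adar were called only between Ly6C-high microglia and monocytes, Usp18 only between Ly6C-low microglia and monocytes, and 8 genes nowhere. Of the 10 genes called higher in Ly6C-high microglia that have a promoter in the table, 2 held the ISRE core, Ifit1 and Ifit3, and of the other 18 measured genes with one, 9 did. Such small counts carry no test.

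Genes upstream of the members were read from lists of the same pathway. Of 14 measured interferon ligands 0 were called between the microglia groups by limma, where 15.4% of all genes were. Ifnb1, the first type I interferon made after infection, read 4.82, 4.21 and 4.22 in Ly6C-high and 4.24, 4.47 and 4.41 in Ly6C-low microglia. The single ligand called anywhere was Ifnab, higher in Ly6C-high microglia than in monocytes (0.68 ± 0.20, adjusted p = 0.0440). That is 7.14% of the ligands, near the 6.88% of all genes called higher there. Of 17 receptor and JAK-STAT genes 6 were lower (35.3%, against 11% of all genes) and 0 higher (4.49% of all genes) in Ly6C-high than in Ly6C-low microglia, with a median of -0.96. Among them were Ifngr1, a chain of the interferon gamma receptor (-1.89 ± 0.45, adjusted p = 0.0227), the phosphatase Ptpn6 (-1.43 ± 0.33, adjusted p = 0.0199) and the kinase Jak1 (-1.42 ± 0.30, adjusted p = 0.0133). Ifnar1, a chain of the type I receptor, read 8.46, 9.16 and 9.18 against 7.72, 8.44 and 8.20 and did not pass (0.81 ± 0.24, adjusted p = 0.0586). Ifnar1 was lower in Ly6C-low microglia than in monocytes (-1.15 ± 0.24, adjusted p = 0.0145). The feedback inhibitor Socs3 was higher in Ly6C-low microglia than in Ly6C-high microglia (log2 difference of Ly6C-high from Ly6C-low -1.19 ± 0.12, adjusted p = 2.92e-04) and than in monocytes (1.24 ± 0.12, adjusted p = 1.95e-04).

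More of the other IRF factors and nucleic acid sensors were called lower than higher in Ly6C-high microglia, the direction opposite to the 11 members above. Of 8 other IRF genes 3 were lower (37.5%, against 11% of all genes), 0 higher (4.49% of all genes) and 5 not called against Ly6C-low microglia. The 3 were Irf5 (-1.93 ± 0.23, adjusted p = 8.11e-04), Irf8, a factor that myeloid cells need (-1.43 ± 0.20, adjusted p = 0.0019), and Irf2bp2 (-0.87 ± 0.13, adjusted p = 0.0029). Of 21 sensors and adaptors 12 were lower (57.1%, against 11% of all genes) and 2 higher (9.52%, against 4.49%), with a median of -0.89. Sting1, the adaptor of cytosolic DNA sensing, fell from 10.20, 10.86 and 10.61 in Ly6C-low microglia to 6.20, 8.07 and 8.69 (-2.91 ± 0.54, adjusted p = 0.0070). Tlr7, an endosomal RNA receptor, fell by 2.84 (-2.84 ± 0.33, adjusted p = 6.72e-04). Ifi203, of the same family as the DNA sensor Aim2, was higher, at 8.58, 9.49 and 8.97 against 6.99, 7.37 and 6.29 (2.13 ± 0.30, adjusted p = 0.0019). Homeostatic microglia markers moved the same way, and their part in these differences was not tested. Against monocytes, 7 of 17 receptor genes, 4 of 8 IRF genes and 10 of 21 sensors were lower in Ly6C-high microglia and 0 higher, with 14.6% of all genes lower and 6.88% higher. For Ly6C-low microglia, where 7.71% of all genes were lower and 6.8% higher, it was 2, 0 and 5 lower and 1, 0 and 2 higher, with Tlr3 the highest of these (2.56 ± 0.35, adjusted p = 0.0017) and Tlr8 the lowest (-3.18 ± 0.31, adjusted p = 2.43e-04).

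**Figure D5:**
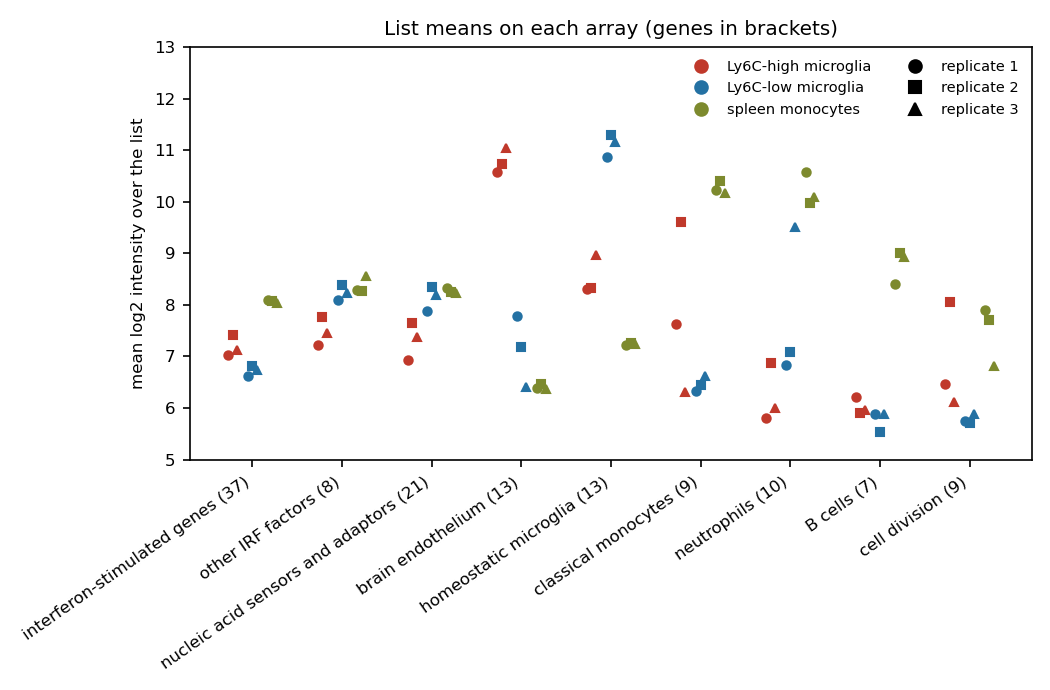
Mean log2 intensity over each list (y axis) on each of the 9 arrays, coloured by group and with a symbol per replicate; the number of genes is in brackets. The 37 interferon-stimulated genes average 7.02 to 7.41 in Ly6C-high microglia, 6.62 to 6.81 in the Ly6C-low group and 8.04 to 8.10 in monocytes, while the sensors and other IRF factors are lowest in Ly6C-high microglia.

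Of 63 further interferon-induced genes outside the list, 6 were higher and 4 lower in Ly6C-high than in Ly6C-low microglia, with a median of 0.17. The 15.9% called were about the share of all genes called, 15.4%, but the directions differed. Of the 63 genes 9.52% were higher, against 4.49% of all genes, and 6.35% lower, against 11%. Slfn5, a member of the Schlafen family, rose from 6.06, 5.87 and 5.61 in Ly6C-low microglia to 8.95, 9.26 and 9.43, with 9.11, 9.23 and 9.01 in monocytes (3.36 ± 0.16 between microglia groups, adjusted p = 1.48e-05). Its relative Slfn8 was lower in Ly6C-high microglia (-2.55 ± 0.51, adjusted p = 0.0105), as was the chemokine Cxcl10 (-2.27 ± 0.45, adjusted p = 0.0096). Against monocytes 25 of the 63 were lower and 2 higher in Ly6C-high microglia (39.7% lower, against 14.6% of all genes), and 23 lower and 0 higher in Ly6C-low microglia (36.5%, against 7.71%). Slfn4, Ms4a4c and the chemokine Ccl5 differed most in both, by -3.95, -3.70 and -3.56 in Ly6C-high microglia (adjusted p = 7.81e-04, 0.0155 and 0.0038) and by -4.20, -4.91 and -4.18 in Ly6C-low microglia (adjusted p = 5.85e-04, 0.0048 and 0.0018). Ms4a4c and Ccl5 were at 9.15 and 9.82 in Ly6C-high replicate 2 and at 5.18 to 7.85 in the other microglia arrays.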

How the data were processed

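Each of the 9 arrays has 1 column in the table the authors deposited, as log2 intensities per probe set. The submitters' processing notes name RMA and oligo without versions, and the build is not given in the sources used here. Normalization that forces arrays of unlike cells to one distribution can move genes whose RNA did not differ, and RMA can compress differences of dim genes. The table holds 34760 probe sets, 21640 with 1 symbol, 1321 with several and 11799 with none in the annotation used. The probe set brightest by its mean over 9 arrays stood for a gene, which gave 19937 genes. Values were used as deposited. limma 3.58.1 (R 4.3.3, lmFit and eBayes) fitted 3 group means to all 9 arrays, and adjusted p-values are from this fit, or from the same model refitted under a named alternative, Benjamini-Hochberg over all genes, two-sided, threshold 0.05. The code was tested on simulated data. The number of arrays, 3 per group, limits the precision. Promoters are from RefSeq (GRCm38.p6). The members and lists were chosen with earlier results of these data known. All measured members are named. Those with the 6 largest called differences of a comparison, and Irf1, Irf7, Irf9 and Stat2, are given array by array, as are members added after their values were seen. Of the pathway lists, the 3 genes with the largest differences were named, with others chosen after their values were seen. Scaling, filters, array weights, blocks and left-out arrays were tried as alternatives. Same-numbered replicates were not treated as pairs.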

Additional observations from a re-analysis of the deposited data

How the results depend on the processing

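No called member changed direction in any of the 20 alternatives run for a comparison. The number of members called between the microglia groups was 7 to 13 when 1 array was left out, 7 when only the 6 arrays compared were fitted, 7 with both Ly6C-high replicate 2 and Ly6C-low replicate 3 left out, and 8 with a spread of its own for each group. The lowest number, 7, came without Ly6C-low replicate 3. Of the 11 calls 6 held in every alternative, as did 11 of 20 for Ly6C-high microglia against monocytes and 19 of 24 for Ly6C-low microglia. Counts against monocytes stayed within 1.5 times. The members' median was 0.39 under quantile normalization and 0.43 under cyclic loess between the microglia groups, against 0.23, and -0.93 to -1.26 for Ly6C-low microglia against monocytes without 1 array, lowest in size without Ly6C-low replicate 1. Over all genes, the 3080 calls between microglia groups became 2038 with 6 arrays and 1956 to 3888 without 1 array, the 4290 calls of Ly6C-high microglia against monocytes 2505 to 6091 without 1 array, and the 2894 of Ly6C-low microglia 5175 with a spread per group, 4614 with 6 arrays and 1864 to 3778 without 1 array. Of the calls between microglia groups 29.1% were higher on deposited values and 40.8% under quantile normalization or cyclic loess. For Ly6C-high microglia against monocytes it was 32%, 45.1% and 43.5%. With the title number as a replicate block 10, 20 and 23 members were called, and 12, 20 and 24 when the block was the number in the description. Arrays with the same title number did not all deviate together (correlations of -0.073 to 0.301), so these numbers were not taken as pairs. Ly6C-high replicate 1 and Ly6C-low replicate 1 share a description number, as do Ly6C-high replicate 2 and Ly6C-low replicate 3, and both pairs deviated together (0.301 and 0.21). The labels do not say that this number marks a shared preparation, and with 2 such pairs they were not taken as paired. When only the 6 arrays compared were fitted, or both Ly6C-high replicate 2 and Ly6C-low replicate 3 were left out, the calls of Irf7, Ifit1, Ifit3 and Cmpk2 between the microglia groups ended (adjusted p = 0.0595 to 0.1255).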

Other observations

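Probe sets shared by several genes were not used above. That annotated to both Isg15 and Gm9706 read 7.37, 7.38 and 7.56 in the Ly6C-high group, 6.40, 6.99 and 6.81 in the Ly6C-low group and 8.31, 8.01 and 7.89 in monocytes. The 3 groups did not overlap. The probe set of Gbp2 and Gbp2b read 7.43, 6.43 and 7.26 in the Ly6C-high group, 6.42, 6.24 and 6.10 in the Ly6C-low group and 7.72, 7.62 and 7.05 in monocytes, and its Ly6C-high arrays overlapped those of monocytes. A second probe set that lists Oas1a together with Oas1g was at 7.29 ± 0.32, 6.41 ± 0.23 and 8.76 ± 0.20 (SD, n = 3) in the same order of groups. A further one that lists Sp100 among 5 genes was at 9.12 ± 0.17, 7.35 ± 0.06 and 10.88 ± 0.08. No gene is named from these values.

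Irf1 had a second probe set of its own. It read 8.98 ± 0.36 in the Ly6C-high group, 8.62 ± 0.09 in the Ly6C-low group and 8.48 ± 0.22 in monocytes (SD, n = 3), so the order of the microglia groups was the reverse of that on the brighter probe set (9.28 ± 0.61 and 9.64 ± 0.12).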
